A study of Drosophila melanogaster with 47 samples.

Results

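The strains *tim_up126* and *tim_up122* carry deletions in the region upstream of *tim*, whose lengths in bp are part of the strain names, and the question here was which genes besides *tim* differ between them. All libraries with either genotype label were taken, 12 per strain, which is 24 of the 47 libraries of the study, with 2 libraries at each of ZT2, ZT6, ZT10, ZT14, ZT18, and ZT22. In both strains the libraries hold poly(A) RNA from heads of male and female flies kept in 12:12 LD at 25 °C for 4 d. The deletions were made with Cas9 and guide RNAs, the chromosomes 2 that carry them were made homozygous, and by the study's account both remove the upstream E-box, while the joined ends in *tim_up126* form a new one. Each deletion is present in 1 strain, so its effects and those of any other variant between the strains cannot be told apart, on chromosome 2 or elsewhere. The control strain *yw* (11 libraries), *tim_up10* (6), and *tim_in24* (6) entered none of the comparisons below other than an alternative fit on all 47 libraries, and their levels are given as ranges or medians with no test.

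In the fly clock, CLK and CYC bind E-boxes and activate *tim*, *per*, *vri*, *Pdp1*, and *cwo*. The PER and TIM proteins then accumulate and repress CLK and CYC, which gives these mRNAs a peak early in the night, and VRI and PDP1 act on *Clk* in a further loop. Heads also hold photoreceptors, neurons, glia, fat body, muscle, and hemocytes, and many genes of metabolism, vision, and immunity in these tissues follow the clock or feeding.

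A library held 1761896 to 8331354 counts in *tim_up126* and 2551357 to 7861357 in *tim_up122*. Levels are CPM, that is, counts scaled to a common library total with TMM factors, and a gene was called when edgeR's quasi-likelihood test gave a Benjamini-Hochberg adjusted p under 0.05 over the 10509 genes tested. The summed photoreceptor markers stood at 34950 to 62960 CPM in *tim_up126* and 46700 to 63470 CPM in *tim_up122*. Some libraries stood apart. The library labelled *tim_up122* ZT6 replicate 2 held 68.2 CPM of summed ovary markers (*osk* 40.5 CPM), against 2.27 to 11.0 CPM in the other libraries. The library labelled *tim_up126* ZT6 replicate 2 held 242 CPM of summed gut markers, with *alphaTry* at 68.8 CPM and *betaTry* at 93.9 CPM, and *tim_up126* ZT22 replicate 2 had the fewest counts and 5.23 CPM of *alphaTry*, a gene at 0 in the remaining libraries. In addition, libraries that share a strain and a replicate number (6 libraries, called a series here) resembled each other across the day: within *tim_up126* the replicate 1 and replicate 2 libraries did not overlap for 674 genes (6.41% of those tested), and within *tim_up122* for 227 genes (2.16%). Whether a series shares a cohort of flies is not given in the sources used here, so counts below are also given with the series as a block, for each replicate number alone, or without the 3 libraries above where these move them. In the fits of 1 replicate number alone, 1 series per strain was compared and its 6 time points stood in as replicates. Counts from these fits therefore cannot tell a strain from its series, and serve as a description only.

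Over the day, 1135 of 10509 genes (10.8%) differed between the strains, 639 (6.08%) higher in *tim_up126* and 496 (4.72%) lower. With library totals in place of TMM factors the split was 478 higher and 576 lower. Most differences were small: 896 were under 1.5-fold, 112 (1.07%) were at least 2-fold, and 38 were at least 4-fold. The direction was the same at all 6 time points for 906 of the called genes. The 12 libraries of one strain lay wholly above or below the 12 of the other for 70 genes (0.666%). At single time points, with 2 libraries against 2, the called genes numbered 45 at ZT2 (0.428%), 142 at ZT6 (1.35%), 66 at ZT10 (0.628%), 65 at ZT14 (0.619%), 55 at ZT18 (0.523%), and 58 at ZT22 (0.552%). The share higher in *tim_up126* was 0.228% at ZT2, 0.79% at ZT6, 0.371% at ZT10, 0.333% at ZT14, 0.247% at ZT18, and 0.324% at ZT22. The share lower was 0.2%, 0.561%, 0.257%, 0.285%, 0.276%, and 0.228% at the same time points. A 24 h rhythm was called for 712 genes (6.78%) in *tim_up126* and 991 (9.43%) in *tim_up122*, 462 of them in both, and these counts were not tested against each other. Without the 3 libraries that stand apart, 1070 genes were called over the day. At ZT6 that leaves 1 library per strain, which is assumed to vary like the other groups, and 46 genes were called there. With the series as a block (limma-voom), 401 genes were called, all of them among the 1135.

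Several of the largest differences were in a cluster of cytochrome P450 genes on 2R, enzymes that oxidise toxins, insecticides, and lipids. The called members of this cluster lie between 14873953 and 14889010 in dm6. *Cyp6a17*, a gene known for temperature preference, had 77.4 to 109 CPM in *tim_up126* (median 89.8) and 1.25 to 3.13 CPM in *tim_up122* (median 2.23). *Cyp6a8* had 23.1 to 56.8 CPM (median 31.7) against 0 to 1.25 CPM (median 0.776). Both were therefore expressed in all *tim_up126* libraries and near the floor in *tim_up122*, by 39.5-fold for *Cyp6a17* (log2 fold change 5.30, standard error 0.08, edgeR adjusted p = 1.33e-20) and 42.7-fold for *Cyp6a8* (5.42, standard error 0.16, edgeR adjusted p = 3.88e-15).

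The neighbours *Cyp6a9*, *Cyp6a19*, *Cyp6a20*, and *Cyp6a23* went the other way. *Cyp6a9* had 0 to 0.564 CPM in *tim_up126* (median 0.232) and 34.1 to 62.2 CPM in *tim_up122* (median 48.6), and no *tim_up126* library held more than 3 counts of it. The ratio of summed levels was 204 (95% counting interval 124 to 366; edgeR adjusted p = 1.16e-16). *Cyp6a19*, which overlaps *Cyp6a9* on the opposite strand, had a ratio of 76.7 (interval 40.1 to 168), and counts of the pair cannot be told apart without strand. *Cyp6a20*, known for an effect on male aggression, had 31.5 to 44.0 CPM in *tim_up126* (median 38.5) and 130 to 216 CPM in *tim_up122* (median 174). *Cyp6a23* had 10.9 to 17.99 CPM (median 15.3) against 36.2 to 68.2 CPM (median 48.6). The strains did not overlap for any of these 6 genes, and the 6 calls held at all 6 time points and with the series as a block.

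Levels in the other strains are given for comparison. *Cyp6a17* had 0.726 to 4.61 CPM in *yw*, 72.9 to 118 CPM in *tim_up10*, and 83.4 to 150 CPM in *tim_in24*. *Cyp6a9* had 48.8 to 69.8 CPM in *yw*, 0 to 0.462 CPM in *tim_up10*, and 0.16 to 0.271 CPM in *tim_in24*. For both genes *yw* thus had the level of *tim_up122*, and *tim_up10* and *tim_in24* that of *tim_up126*. *Cyp6a8* was low in *tim_up122* alone, with 18.1 to 36.2 CPM in *yw*, 14.1 to 28.4 CPM in *tim_up10*, and 25.3 to 40.7 CPM in *tim_in24*. Over the whole family, 16.9% of the genes tested were called, the cluster members above among them, beside 10.8% of all genes. Of 77 cytochrome P450 genes tested, 7 were higher in *tim_up126* and 6 lower (12 and 5 without the 3 libraries, 4 and 4 with the series as a block), with a median log2 fold change of 0.08 beside 0.00 over all genes.

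Among the 20 genes with the largest called differences (10 in each direction, of those with a mean of at least 1 CPM and 1 direction at all 6 time points), 3 further genes act in carbohydrate metabolism. *Pepck2*, a phosphoenolpyruvate carboxykinase, an enzyme of glucose and glycerol synthesis, had 17.9 to 67.4 CPM in *tim_up126* (median 28.4) and 1.14 to 5.47 CPM in *tim_up122* (median 1.96), with no overlap between the strains (log2 fold change 3.81, standard error 0.12, edgeR adjusted p = 1.31e-14). *Amy-p*, 1 of the 2 amylase genes that digest starch, had 9.88 to 52.7 CPM (median 23.1) against 0.813 to 4.24 CPM (median 1.96; 3.55, standard error 0.22, edgeR adjusted p = 8.2e-10). *Amy-p* was itself among the gut markers summed above, and its 52.7 CPM came from the ZT6 replicate 2 library that held most of them. The next highest *tim_up126* library had 37.6 CPM. *Amy-d*, the partner of *Amy-p*, was similar in both strains, with 25.0 to 56.8 CPM and 30.1 to 67.0 CPM (edgeR adjusted p = 0.2). Reads of these near-identical copies could have been split in counting. *tobi*, an α-glucosidase gene known to respond to diet and insulin-like peptides, had 0.193 to 12.2 CPM (median 4.93) against 0 to 1.09 CPM (median 0.214). Its libraries overlapped, though it was higher at all 6 time points (4.66, standard error 0.49, edgeR adjusted p = 2.32e-06).

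The remaining genes of the 20 with the largest differences were mostly at low levels. Higher in *tim_up126* were *lncRNA:CR44458*, with 231 counts in *tim_up126* and 1 in *tim_up122*, the testis gene *c-cup*, with 150 counts against 3, *lncRNA:CR44219*, *CG10869*, and *SoYb*, a Tudor-domain gene of the piRNA pathway. The only *tim_up122* library with *SoYb* near the *tim_up126* range was the one with ovary markers, at 3.42 CPM. Lower in *tim_up126* were *CG34188*, with 0 to 1.16 CPM against 10.4 to 17.4 CPM, *CG30083*, with 0.581 to 2.07 CPM against 5.21 to 21.0 CPM, *CG4839*, *CG30289*, *lncRNA:CR45461*, *CG33301*, *Pgant4*, and *Muc14A*. *Muc14A*, a mucin gene, was high in 1 of the 4 series only. It had 18.1 to 31.0 CPM in *tim_up122* replicate 1, 0.15 to 1.54 CPM in *tim_up122* replicate 2, and 0.386 to 2.06 CPM in *tim_up126*. With the series as a block its call was lost (limma-voom adjusted p = 0.735).

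**Figure D1:**
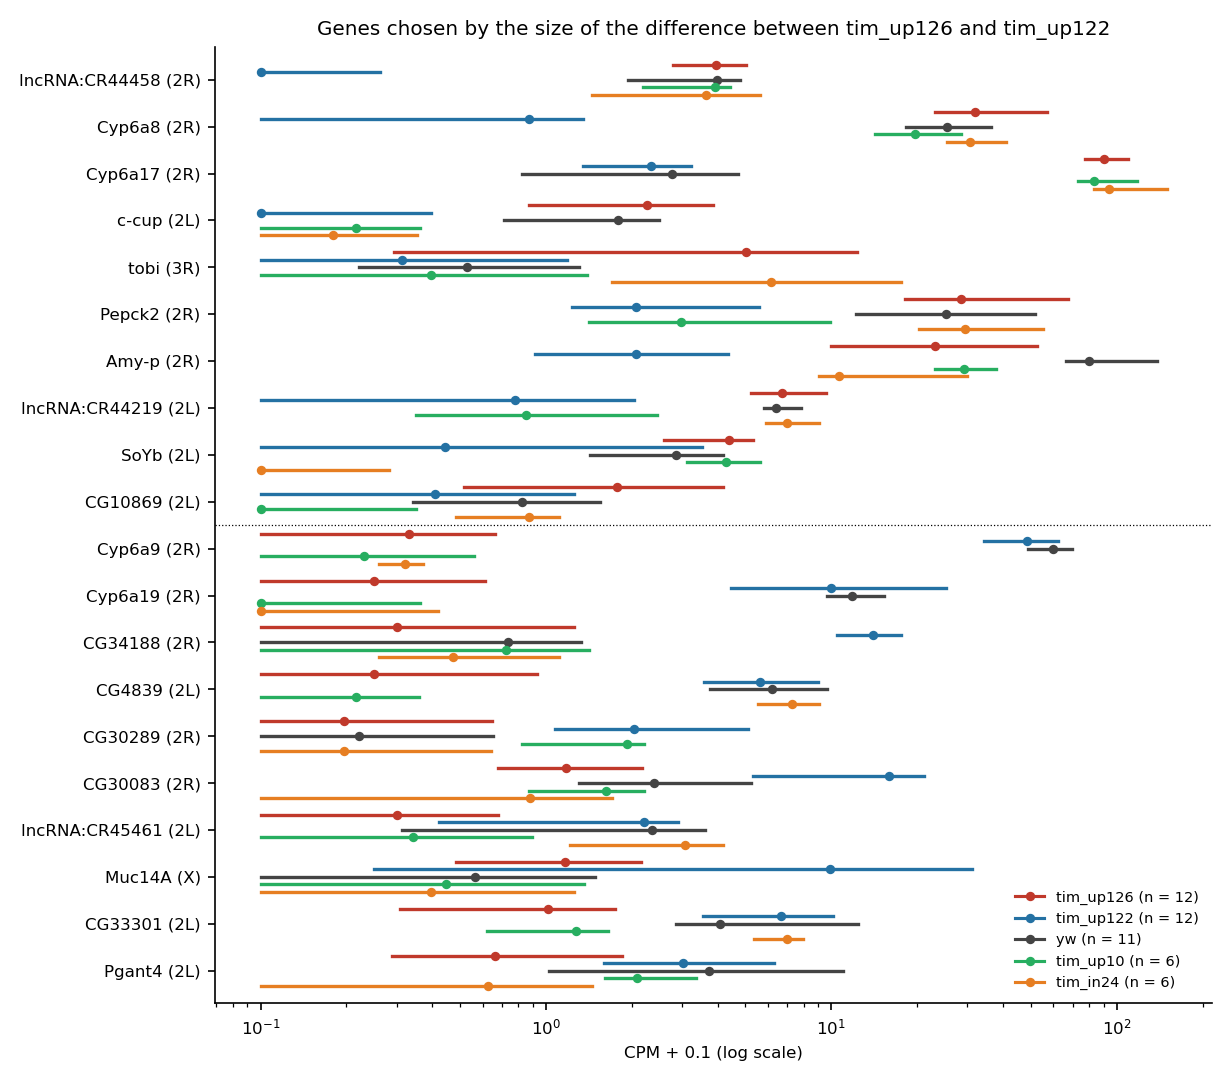
Levels of the 20 genes with the largest called differences among those with a mean of at least 1 CPM and 1 direction at all 6 time points (CPM + 0.1, log axis) in the 5 strains. Points are medians and lines run from the lowest to the highest library. The upper 10 genes were higher in *tim_up126* and the lower 10 were lower. The chromosome arm of each gene is in brackets, and 18 of the 20 lie on 2L or 2R. For *Cyp6a17* and *Cyp6a9* the *yw* range lies with that of *tim_up122*.

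The large differences were concentrated on chromosome 2, which carries *tim* and was made homozygous in each strain. Of all genes tested, 38.6% lie on chromosome 2, but it held 67.9% (76) of the 112 genes with at least a 2-fold difference, 89.5% (34) of the 38 with at least 4-fold, and 81.4% (57) of the 70 whose libraries did not overlap. Called genes of any size were spread more evenly, from 8.55% on 3R and 8.76% on X to 13.0% on 2L and 13.1% on 2R. In windows of 1 Mb, 10 of 135 held 4 or more called genes of at least 2-fold, and all 10 were on 2L or 2R. The window of 2R from 14 to 15 Mb held 9 of them (6 *Cyp6a* genes, *AttA*, *AttB*, and *CG43919*), and the window of 2L from 1 to 2 Mb held 8, among them the fruit odour receptors *Or22a* and *Or22b*. Both receptors were at low levels, with medians of 0.601 and 0.506 CPM in *tim_up126* against 1.17 and 1.16 CPM, and their calls were lost in 12 and 20 of 24 fits that left out 1 library. On the small chromosome 4, 10 of 90 genes were lower in *tim_up126* and 1 was higher (12.2% called, near the 10.8% over all genes). The direction there turned between replicate numbers, with 4 higher and 46 lower in replicate 1 alone and 27 higher and 4 lower in replicate 2 alone, and 3 were called, all lower, with the series as a block.

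**Figure D2:**
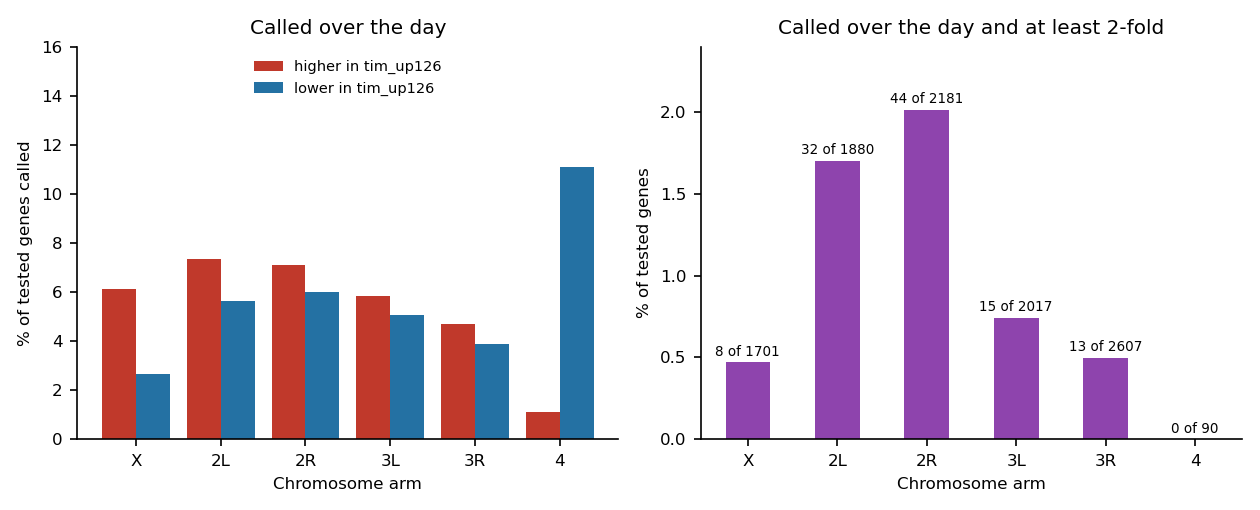
Share of the genes tested on each chromosome arm that were called over the day, by direction (left), and that were called with at least a 2-fold difference (right, with counts above the bars). Genes of at least 2-fold made up 32 of 1880 genes on 2L and 44 of 2181 on 2R, against 8 of 1701 on X.

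*tim* (FBgn0014396) lies on the minus strand of 2L from 3493986 to 3508119 in dm6. Within 250 kb of it, 13 of 57 genes were called (22.8%), 6 higher and 7 lower, and within 1 Mb 29 of 181 (16%). The share was 13.0% on 2L and 10.8% over all genes, and the 13 include *snoRNA:Or-CD16*, described below. The largest of these differences by log2 fold change were in the adjacent genes *Pgant4* and *CG31776*. *CG31776* had 0.191 to 4.63 CPM in *tim_up126* (median 0.796) and 2.98 to 9.64 CPM in *tim_up122* (median 4.17). *Pgant4*, a glycosyltransferase gene of mucin-type glycosylation, had 0.188 to 1.74 CPM (median 0.565) against 1.49 to 6.17 CPM (median 2.92). Both genes were lower at all 6 time points, with log2 fold changes of -2.10 for *CG31776* and -2.27 for *Pgant4*. *LeuRS*, the leucyl-tRNA synthetase gene next to *tim*, was higher in *tim_up126* (0.42, standard error 0.07, edgeR adjusted p = 0.000244), as were *CG8837*, *Ptpa*, and *lncRNA:CR45706*, while *CG9663* was lower (-0.52, standard error 0.07, edgeR adjusted p = 4.31e-05). *snoRNA:Or-CD16* lies inside *tim* on the same strand, so its log2 fold change of -1.05 cannot be told apart from that of *tim*. With the series as a block, 7 of the 57 were called.

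*tim* mRNA was lower in *tim_up126* at every time point, with 82.4 to 205 CPM (median 145) against 139 to 604 CPM in *tim_up122* (median 342). The ranges overlapped across the day, but at each time point both *tim_up126* libraries lay below both *tim_up122* libraries. Over the day the difference was 2.21-fold (log2 fold change -1.14, standard error 0.07, edgeR adjusted p = 3.1e-10), and it ran from -0.64 at ZT6 (edgeR adjusted p = 0.0677) to -1.54 at ZT14 and ZT18. When strain labels were exchanged among the libraries of a time point, the exact permutation p was 4.29e-05 (two-sided), the smallest that the 46656 splits allow.

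Among the other clock genes, *vri* and *per* were higher in *tim_up126* over the day, with log2 fold changes of 0.29 (standard error 0.04, edgeR adjusted p = 8.74e-05) and 0.22 (standard error 0.05, edgeR adjusted p = 0.00826). In the exact permutation test (two-sided) of level, *vri* passed with 0.0387 and *per* missed the threshold with 0.179, both as adjusted p. Both differed by time of day more than in mean level. *vri*, a bZIP repressor of *Clk*, had 186 and 197 CPM at ZT2 in *tim_up126* against 107 and 108 CPM in *tim_up122*, and 254 and 271 CPM at ZT22 against 164 and 176 CPM. At ZT14 it had 324 and 329 CPM against 366 and 381 CPM. The *tim_up126* rhythm of *vri* was thus shallower, with a log2 amplitude of 0.40 against 0.83 (exact permutation, two-sided, adjusted p = 0.0211), and called differences at ZT2 (0.84) and ZT22 (0.62) but not at ZT14 (-0.19, edgeR adjusted p = 0.722).

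*per* rose earlier in *tim_up126*. At ZT6 it had 215 and 223 CPM against 99.5 and 142 CPM (log2 fold change 0.84, edgeR adjusted p = 0.00114). At ZT10 the strains overlapped, with 231 and 213 CPM against 204 and 219 CPM, and at ZT14 *per* had 164 and 169 CPM against 213 and 204 CPM. The phase of a 24 h harmonic was 9.12 h in *tim_up126* and 12.4 h in *tim_up122*, a difference of -3.26 h (exact permutation, two-sided, adjusted p = 0.0211). This advance kept its call with each library left out, but the over-the-day call of *per* was lost with the series as a block (limma-voom adjusted p = 0.0763).

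*Pdp1*, the activator of *Clk*, had 587 to 1151 CPM in *tim_up126* and 512 to 1213 CPM in *tim_up122*, with no difference in level (log2 fold change 0.03, edgeR adjusted p = 0.867). Its amplitude was 0.25 against 0.56 (exact permutation, two-sided, adjusted p = 0.0484), but the call was lost in 16 of 24 sets that left out 1 library. In *tim_up126* all replicate 2 libraries of *Pdp1* lay above the replicate 1 libraries of the same time point, and the level difference was -0.25 in replicate 1 alone and 0.28 in replicate 2 alone. *cwo*, a further repressor of E-box genes, was higher by 0.20 (edgeR adjusted p = 0.0391), a call lost in 18 of 24 fits that left out 1 library. *Clk*, *cyc*, *cry*, and CG31324 (*Cipc*) did not pass over the day, with log2 fold changes from -0.07 to 0.03. Of 14 clock kinase, phosphatase, and degradation genes tested, 0 were called, beside 10.8% of all genes.

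**Figure D3:**
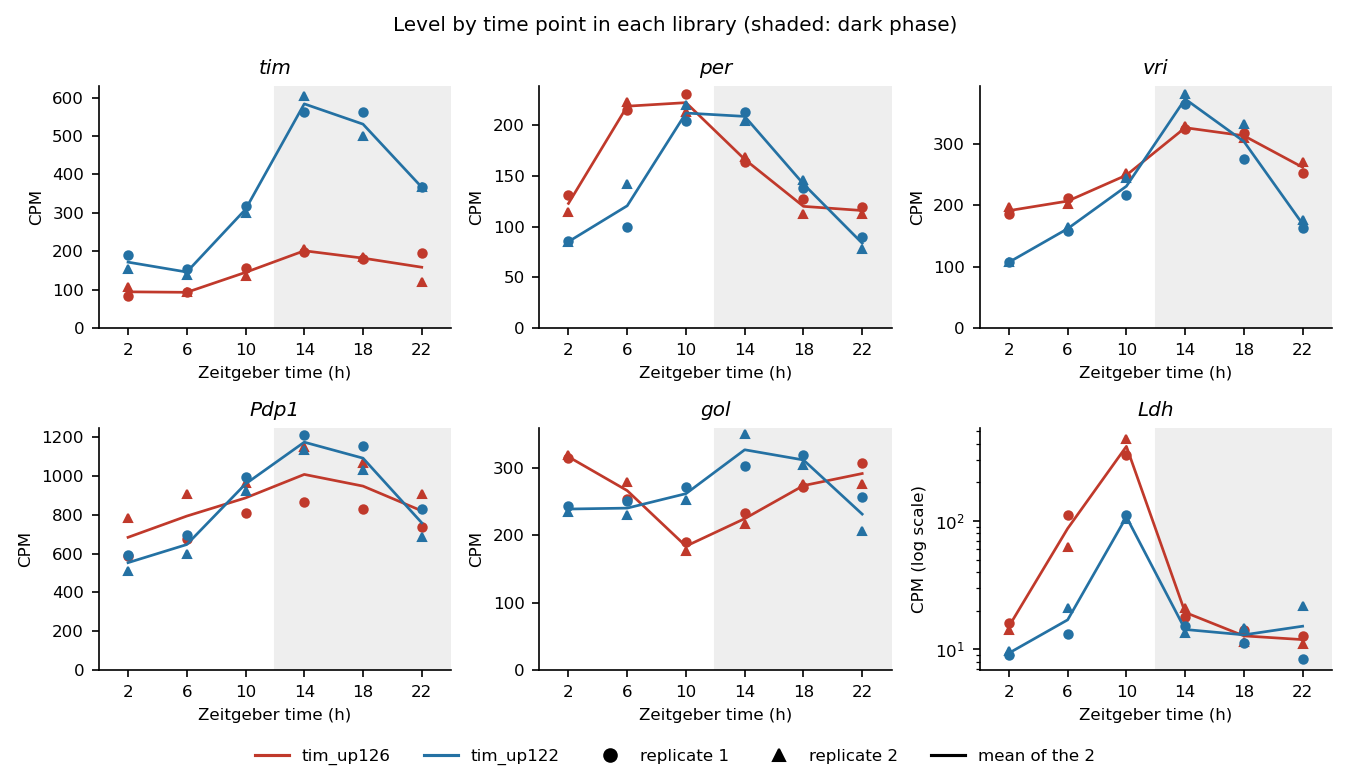
CPM of *tim*, *per*, *vri*, *Pdp1*, *gol*, and *Ldh* against zeitgeber time in each library (circles replicate 1, triangles replicate 2, lines the mean of the 2, *Ldh* on a log axis, shading the dark phase). *tim* reaches 604 CPM in *tim_up122* and 205 CPM in *tim_up126*, *per* is at 215 and 223 CPM by ZT6 in *tim_up126*, and *gol* has its lowest *tim_up126* levels at ZT10, with 190 and 177 CPM.

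The strain difference changed over the time points for 3 genes of 10509 (0.0285%), *per*, *vri*, and *gol* (edgeR adjusted p = 0.0389 for each), and the same 3 genes were called for a different 24 h rhythm (0.0285%). At an unadjusted p under 0.05 the counts were 310 and 364. *gol* (goliath), a gene on 2R for a membrane-bound RING-finger ubiquitin ligase, was rhythmic in both strains with different fitted peak times. In *tim_up126* it was highest at ZT2, with 314 and 319 CPM, and lowest at ZT10, with 190 and 177 CPM. In *tim_up122* it had 303 and 351 CPM at ZT14 and 243 and 235 CPM at ZT2. The 2 series differed there: ZT14 was the highest time point in replicate 2, while replicate 1 reached 319 CPM at another time point. In replicate 2 the lowest level was 206 CPM, also not at ZT2. The fitted phases were 23.5 h and 14.9 h (edgeR adjusted p = 0.00499 for the rhythm difference), and the mean level over the day did not differ (-0.06, edgeR adjusted p = 0.511). The interaction calls of all 3 genes were lost in most fits that left out 1 library, with library totals, and with all 47 libraries. The rhythm call of these 3 genes held without the 3 libraries that stand apart, with 1 library per strain left at ZT6. With all 47 libraries their rhythm calls were lost too.

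*Ldh*, lactate dehydrogenase, which links glycolysis to lactate, was higher in *tim_up126* at ZT6 and ZT10. At ZT6 it had 112 and 63.0 CPM against 13.1 and 20.8 CPM, and at ZT10 it had 327 and 434 CPM against 111 and 104 CPM. The log2 fold changes were 2.27 (edgeR adjusted p = 0.000218) and 1.83 (edgeR adjusted p = 0.000308), and the other 4 time points did not pass. *CG14907* was also higher at ZT6 and ZT10, with 17.7 and 15.8 CPM at ZT6 against 3.09 and 5.21 CPM (1.90, edgeR adjusted p = 0.000204). The mitochondrial small heat shock gene *Hsp22* had 179 and 112 CPM at ZT6 against 18.1 and 43.9 CPM (2.11, edgeR adjusted p = 0.000218), and peaked at ZT10 in both strains. Over the day 2 of 11 heat shock genes tested were higher and 1 was lower (27.3% called, beside 10.8% over all genes). The lower one was *Hsp27* (-1.34, and -1.47 to -0.96 with 1 library left out), a call lost in 14 of 24 fits that left out 1 library. The interaction of *Ldh* did not pass (edgeR adjusted p = 0.0989), and without the 3 libraries that stand apart it did (0.0238), as did that of *Hsp22* (0.0114), but ZT6 then holds 1 library per strain.

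From a list of genes known to cycle in fly heads, 46.7% of those tested were called, beside 10.8% of all genes. Among the 15 tested, 6 were higher in *tim_up126* and 1 was lower (4 and 0 with the series as a block), with a median log2 fold change of 0.15. *CG42329*, in the same window of 2L as *c-cup*, had 20.9 to 38.6 CPM in *tim_up126* (median 25.8) and 3.26 to 23.1 CPM in *tim_up122* (median 8.34; 1.68, standard error 0.11, edgeR adjusted p = 1.88e-09). The strains overlapped only through *tim_up122* at ZT2, where *CG42329* was highest, with 20.4 and 23.1 CPM. *Usp8*, a deubiquitinase gene, was higher over the day (0.28, edgeR adjusted p = 5.41e-05), by 0.67 at ZT22 and 0.45 at ZT2, and not at its peak at ZT10 (-0.12). *to* (takeout), a feeding-related secreted protein gene of the fat body, had 87.5 to 227 CPM (median 133) against 56.9 to 158 CPM (median 92.0; 0.51, edgeR adjusted p = 0.000241), and was higher at all 6 time points. *Achl* was the lower gene (-0.39, edgeR adjusted p = 0.0048), a call lost with the series as a block (limma-voom adjusted p = 0.0965).

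All 7 hemocyte markers tested were called higher in *tim_up126*, beside 6.08% of all genes, by log2 fold changes of 0.19 to 0.96 (median 0.50). *PPO1* and *PPO2*, the prophenoloxidases of crystal cells that drive melanization, had 32.2 to 148 CPM (median 88.6) and 43.6 to 143 CPM (median 98.2) in *tim_up126*. In *tim_up122* they had 21.8 to 116 CPM (median 38.1) and 26.1 to 118 CPM (median 47.9). The strains overlapped for both. *Hml*, hemolectin of plasmatocytes, had 131 to 292 CPM (median 208) against 83.1 to 221 CPM (median 127; 0.59, standard error 0.12, edgeR adjusted p = 0.00388). The collagen IV genes *Col4a1* and *vkg*, also expressed in fat body, were higher by 0.50 and 0.46, *Pxn* by 0.19, and the phagocytosis receptor gene *NimC1* by 0.37. Summed over the list the level was 757.5 to 1459 CPM (median 1124) against 547.4 to 1197 CPM (median 733.8). In bulk heads more hemocytes and more RNA per hemocyte cannot be told apart. With the series as a block only *Hml* passed (limma-voom adjusted p = 0.0443; *Col4a1* 0.0521, *PPO1* 0.165), without the 3 libraries all 7 did, and taken alone replicate 1 gave 0 calls (edgeR, median 0.36) and replicate 2 gave 4 (median 0.62).

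Of 16 genes tested for lipid synthesis and storage, 7 were higher and 0 lower (43.8% called, beside 10.8% over all genes). The median log2 fold change was 0.15. *Lsd-1* and *Lsd-2*, the perilipins that coat lipid droplets, were higher by 0.40 and 0.29, with 220 to 330 CPM against 166 to 336 CPM for *Lsd-1* (edgeR adjusted p = 0.00359). *AcCoAS*, which makes acetyl-CoA, had 468 to 834 CPM (median 597) against 350 to 602 CPM (median 455; 0.36, edgeR adjusted p = 0.00383). *ACC*, the first enzyme of fatty acid synthesis, was higher by 0.28, *SREBP*, a regulator of such genes, by 0.15, *Lpin* by 0.13 (a call lost in 22 of 24 fits that left out 1 library), and *bmm*, a lipase that breaks lipid stores down, by 0.25. *FASN1*, the fatty acid synthase, had a log2 fold change of 0.28 and did not pass (edgeR adjusted p = 0.0955). Without the 3 libraries 4 of the 16 passed, and with the series as a block 2 did, *AcCoAS* (limma-voom adjusted p = 0.0276) and *Lsd-1* (0.0426).

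*Rh2*, the opsin gene of the ocelli, the simple eyes on top of the head, was higher in *tim_up126*, with 289 to 373 CPM in *tim_up126* (median 315) and 69.0 to 208 CPM in *tim_up122* (median 162), so the strains did not overlap (log2 fold change 1.09, standard error 0.09, edgeR adjusted p = 3.93e-08). In the other strains *Rh2* had 181 to 262 CPM in *yw*, 206 to 241 CPM in *tim_up10*, and 249 to 369 CPM in *tim_in24*, so *tim_up122* held the lowest levels and *tim_in24* overlapped *tim_up126*. Opsins of the compound eye had smaller log2 fold changes. *Rh6*, of R8 photoreceptors, was called at 0.23 (edgeR adjusted p = 0.0465), while *ninaE* (-0.14), *Rh3* (0.11), *Rh4* (0.01), and *Rh5* (0.06) did not pass. *ninaA*, a chaperone for rhodopsin, and *trpl*, a light-gated channel subunit, were higher by 0.32 and 0.27 (edgeR adjusted p = 0.00388 and 0.00223). Calls covered 16% of the phototransduction genes tested, beside 10.8% of all genes. In all, 4 of 25 phototransduction genes were higher and 0 lower (4 and 2 without the 3 libraries), and the call of *Rh6* rested on replicate 1, with log2 fold changes of 0.47 in replicate 1 and -0.02 in replicate 2 alone. Of 18 pigment genes, 5 were higher and 1 lower (33.3% called). The higher ones were *se* (0.35) and *v* (0.32), for the drosopterin and ommochrome pathways, *ry* (0.22), and *b* (0.57) and *e* (0.57), which act in β-alanine and dopamine conjugation, and *se* and *v* passed with the series as a block.

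Antimicrobial peptide genes differed in both directions, with a wide spread among libraries, and 46.2% of those tested were called, beside 10.8% of all genes. Of 13 antimicrobial peptide genes tested, 4 were lower and 2 higher (2 and 2 without the 3 libraries, of 17 then tested), with a median log2 fold change of -1.33 (-2.48 in replicate 1 alone and -0.08 in replicate 2 alone). *Mtk*, metchnikowin, had 3.56 to 39.7 CPM (median 7.17) in *tim_up126* and 8.55 to 184 CPM (median 27.4) in *tim_up122* (-2.10, standard error 0.48, edgeR adjusted p = 0.00683). *AttB* had 3.28 to 11.8 CPM against 6.51 to 81.0 CPM (-1.88), and its neighbour *AttA* the opposite, with 5.81 to 28.8 CPM against 0.855 to 23.7 CPM (1.63, edgeR adjusted p = 0.0146). The attacins encode nearly the same peptide, and how their reads were divided is not given in the sources used here. *Def* and *Drs* were also lower (-0.53 and -1.33), calls lost in 4 and 16 of 24 fits that left out 1 library, and *Drsl4* was higher (0.92, edgeR adjusted p = 0.00158). With the series as a block *Drsl4* alone was called (limma-voom adjusted p = 0.0224), and *Mtk* differed by -3.37 in replicate 1 and -0.67 in replicate 2. Of 16 bomanins and immune-induced peptides 4 were lower and 0 higher (25% called, median -0.20), and of 4 Turandot genes 2 were lower (50% called, median -1.18). With the series as a block 0 of either group passed in limma-voom, and without the 3 libraries 1 of each did.

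**Figure D4:**
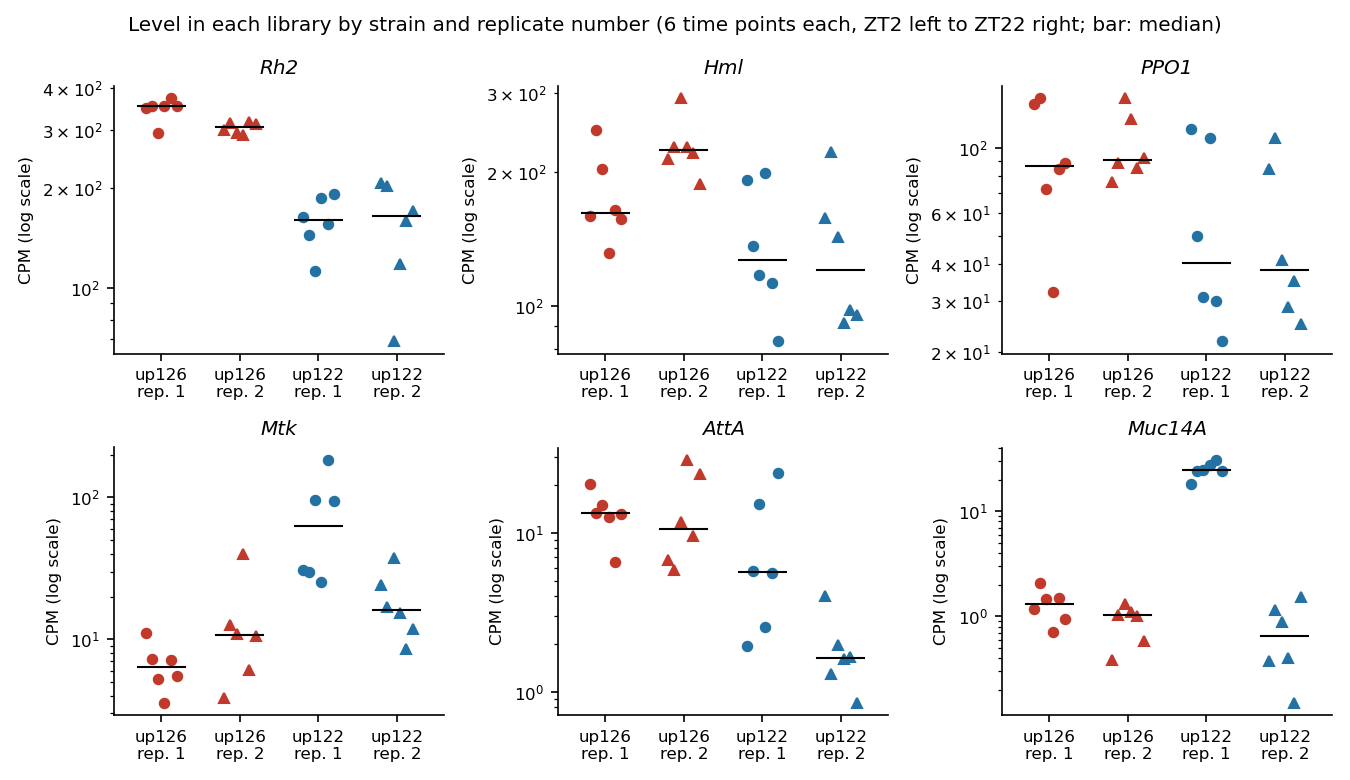
CPM (log axis) of *Rh2*, *Hml*, *PPO1*, *Mtk*, *AttA*, and *Muc14A* in each library, by strain and replicate number, with ZT2 at the left and ZT22 at the right of each column and a bar at the median. *Rh2* separates the strains in both replicates. *Muc14A* has a median of 24.7 CPM in *tim_up122* replicate 1 and 0.646 CPM in replicate 2.

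Of 29 odorant binding protein genes, 6 were lower and 1 higher (24.1% called, beside 10.8% over all genes, median -0.09). Replicate 1 alone gave 3 lower and 4 higher (median 0.04), and replicate 2 alone 8 lower and 0 higher (edgeR, median -0.26). *Obp57c* had 88.1 to 135 CPM in *tim_up126* (median 114.5) and 131 to 163 CPM in *tim_up122* (median 148; -0.38, edgeR adjusted p = 0.000307), and *Obp49a*, which binds bitter compounds in taste organs, had 39.6 to 149 CPM (median 109) against 130 to 187 CPM (median 162; -0.62, edgeR adjusted p = 0.0014). *Obp57b*, *Obp56d*, and *Obp56e* were lower by -0.36, -0.32, and -0.29 in log2, and *Obp99b* was higher (0.82). Of these, *Obp57c*, *Obp49a*, *Obp57b*, and *Obp56d* passed with the series as a block. Of 14 peptide and receptor genes of clock neurons, 2 were called (14.3%, near the 10.8% over all genes), both higher. They were *Hug* (0.31, edgeR adjusted p = 0.00311) and *CNMa* (0.86, edgeR adjusted p = 0.00322), and 1 of the 2 was called with the series as a block (limma-voom). Replicate 1 alone gave 2 higher and 3 lower, and replicate 2 alone 1 higher and 0 lower (edgeR). *Pdf*, the main output peptide, was not called (0.08, edgeR adjusted p = 0.381). Of 15 other neuropeptide genes, 33.3% were called. In that group 4 were lower, *Proc* (-0.35), *SIFa* (-0.41), *Nplp3* (-0.34), and *Nplp4* (-0.68), and *Dsk* was higher (0.20). *Proc*, proctolin, had 48.1 to 65.8 CPM against 60.3 to 93.4 CPM and was the only one of these 5 called with the series as a block (limma-voom adjusted p = 0.0188).

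Genes of translation were called less often than the 10.8% over all genes, and genes of respiration near that share. Of 85 cytosolic ribosomal protein genes, 4 were lower and 0 higher (4.71% called, median -0.04), and of 73 mitochondrial ones 2 were lower (2.74%). *RpL29*, on 2R, had 205 to 247 CPM in *tim_up126* (median 217) and 243 to 330 CPM in *tim_up122* (median 296; -0.41, standard error 0.05, edgeR adjusted p = 2.6e-05). Of 65 respiratory chain and ATP synthase genes, 5 were lower and 1 higher (9.23% called). In limma-voom with the series as a block 2 cytosolic ribosomal and 1 respiratory gene were called, all lower. *ND-15*, a complex I subunit gene on 2L, had 58.3 to 70.2 CPM against 81.4 to 94.9 CPM, with no overlap (-0.41, standard error 0.04, edgeR adjusted p = 4.24e-07). The replicate numbers differed on these large families. In replicate 1 alone 38 cytosolic ribosomal and 21 respiratory genes were higher in *tim_up126*, and in replicate 2 alone 55 and 28 were lower. Of 33 proteasome genes 2 were called (6.06%), *Rpn1* and *Rpn2*, both higher (0.20 and 0.21), beside 6.08% of all genes. Replicate 1 alone gave 10 higher and 0 lower, and replicate 2 alone 0 higher and 1 lower (edgeR).

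**Figure D5:**
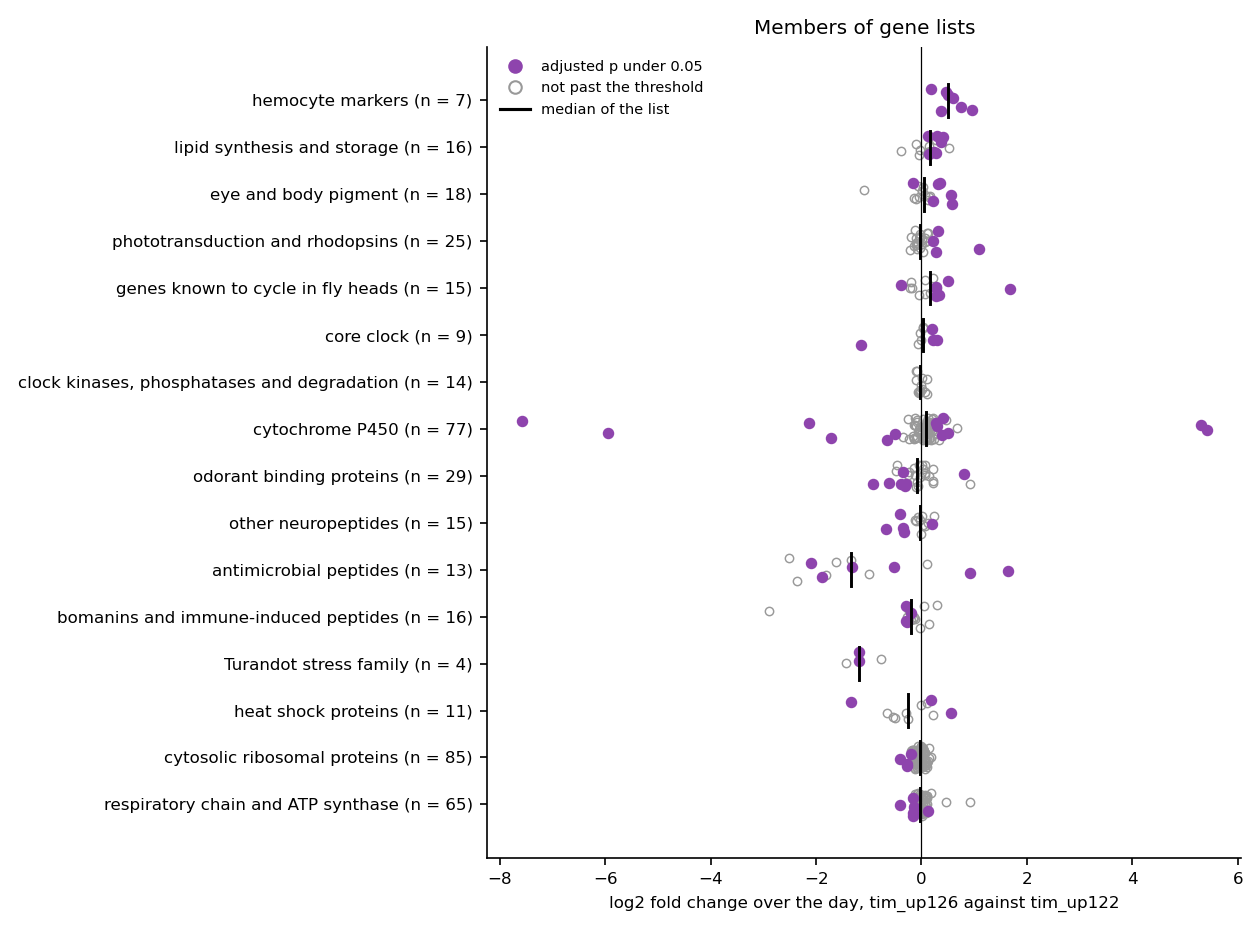
Log2 fold change over the day of each tested member of 16 gene lists, filled where edgeR's adjusted p was under 0.05, with a bar at each list's median. All 7 hemocyte markers are filled and to the right of 0, and the cytochrome P450 list holds both extremes, *Cyp6a9* at -7.59 and *Cyp6a8* at 5.42.

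Of the markers of other tissues, 1 of 11 neuron markers was called (9.09%, near the 10.8% over all genes), and it was higher. In replicate 1 alone 7 neuron markers were lower and 0 higher (edgeR, median -0.18), and in replicate 2 alone 8 were higher and 0 lower (median 0.34), while with the series as a block 0 passed in limma-voom. Of 12 muscle markers 1 was higher and 1 lower (16.7% called), and 0 passed with the series as a block in limma-voom. Of 10 glia markers 40% were called, beside 10.8% of all genes, 2 higher (*Gs2* and *alrm*) and 2 lower (*Eaat2* and *moody*). Of these, *Eaat2* alone passed with the series as a block. Of 6 fat body markers *to* was higher (16.7% called). The yolk protein genes *Yp1*, *Yp2*, and *Yp3*, made in female fat body, had log2 fold changes of 0.01, -0.16, and -0.29, and none was called. *fit*, a female-biased fat body gene that responds to feeding, had 67.1 to 443 CPM in *tim_up126* (median 108) and 69.1 to 748 CPM in *tim_up122* (median 271; -0.76, edgeR adjusted p = 0.0218), a call lost with the series as a block (limma-voom adjusted p = 0.186). Digestive serine protease genes had a median of 2.63 over 4 genes tested with 0 called (edgeR), and their summed level was 330 CPM in 1 *tim_up126* library against medians of 2.09 and 1.56 CPM.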

How the data were processed

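The authors deposited 1 table of read counts per gene for all libraries, made from poly(A) RNA libraries of fly heads. The submitters' processing notes name STAR, SAMtools, featureCounts, DESeq2, and dm6, while the study's methods name TopHat and ESAT, and which tools made the counts, the annotation release, and the strand setting are not given in the sources used here. Reads of near-identical or overlapping genes may therefore be misassigned. Counts of the 24 libraries were analysed as deposited in R 4.3.3 with edgeR 4.0.16: genes passing filterByExpr over the 12 groups, TMM factors, a mean per genotype and time point, and the quasi-likelihood test of the mean difference over 6 time points, of each time point, of the interaction, and of a 24 h cosine and sine by genotype. P-values were Benjamini-Hochberg adjusted over all genes tested. Level, amplitude, and phase of 9 clock genes (log2 CPM, prior count 2) were tested by exact permutation of genotype within time point, adjusted over these tests together. Scripts were tested on simulated data. Figures used Python 3.11.15 and matplotlib 3.10.9. The study calls the 2 libraries of a strain and time point biological replicates without describing how they were raised, and p-values measure the spread between these samples. Fits of 1 replicate number alone are the exception. They took strain and time point as terms without an interaction, so their spread is that between time points of 1 series per strain. Alternatives were DESeq2 1.42.0, limma 3.58.1, other scalings and filters, all 47 libraries, replicate blocks, and leaving out each library. Counting intervals and floors cover counting error only.

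Genes could be named by a rule that took the clock genes, the 10 genes most higher and 10 most lower (mean of at least 1 CPM, same direction at all time points), the 5 smallest p-values of the interaction and of the rhythm test, up to 6 called members per list, and called genes within 250 kb of *tim*. Only part of them are printed. Among those left out are some called genes near *tim* and the called glutathione transferase, UDP-glycosyltransferase, cuticle, and peptidoglycan recognition genes. Members and lists were chosen with earlier results of these data known. *NimC1*, *SREBP*, *Amy-d*, and genes given as not called fall outside that rule and were chosen after their values were seen.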

Additional observations from a re-analysis of the deposited data

Results flagged for a closer look

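The course over the day of *per*, *vri*, and *gol* differed between the strains in tests of the difference itself. For *Pdp1* this held for amplitude alone, and that call was lost in 16 of 24 sets that left out 1 library. The strain difference changed over the time points for *gol*, *vri*, and *per* (edgeR adjusted p = 0.0389 for each). These 3 calls were lost in most fits that left out 1 library. The 24 h rhythm differed for *gol* (edgeR adjusted p = 0.00499), *vri* (0.00451), and *per* (0.00451). In the exact permutation tests of clock genes, *per* had an earlier phase in *tim_up126* (9.12 h against 12.4 h, adjusted p = 0.0211), *vri* a smaller amplitude (0.40 against 0.83, adjusted p = 0.0211), and *Pdp1* a smaller amplitude (0.25 against 0.56, adjusted p = 0.0484). The amplitudes of *Clk* and *cry* were also smaller in *tim_up126*, by -0.28 and -0.21 in log2, and did not pass (exact permutation, adjusted p = 0.0608 and 0.0604). The largest amplitude difference was that of *tim* (0.60 against 1.05), which did not pass (exact permutation, adjusted p = 0.478). Exchanging labels within time points mixes the level difference of *tim* into its amplitude, so this test could miss a change there. *per* and CG31324 (-0.22 each) and *cwo* (-0.08) were smaller too, *cyc* (0.02) was larger, and none passed.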

How the results depend on the processing

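Over the day 1117 genes were called with median-of-ratios scaling, 1054 with library totals, 1386 with no filter on low counts, 1259 with all 47 libraries, 958 with DESeq2, and 854 to 1121 with 1 library left out. Replicate numbers did not pair libraries across strains: the correlation of replicate differences was 0.01 at ZT2 and -0.05 to -0.13 at the other time points. A block for replicate number within time point gave 693 calls over the day, 41 at ZT14, 0 for the interaction, and 9 for the rhythm. With no filter the counts were 184 at ZT2, 516 at ZT6, 223 at ZT10, 197 at ZT14, 243 at ZT18, 272 at ZT22, 296 for the interaction, and 104 for the rhythm. The interaction count was 0 with library totals and with all 47 libraries, where the rhythm count was also 0, and DESeq2 gave 11 and 6. With 1 library left out the counts were 23 to 54 at ZT2, 63 to 241 at ZT6, 25 to 75 at ZT10, 33 to 76 at ZT14, 32 to 60 at ZT18, 28 to 62 at ZT22, 0 to 20 for the interaction, and 3 to 7 for the rhythm. At ZT6 the lowest count came without *tim_up126* ZT6 replicate 2 and the highest without *tim_up122* ZT6 replicate 1. In the permutation tests the leave-one-out ranges were -0.32 to -0.23 for *Clk* amplitude, -0.25 to -0.17 for *cry* amplitude, -0.37 to -0.24 for *Pdp1* amplitude, 0.27 to 0.32 for *vri* level, and 0.17 to 0.24 for *cwo* level, and each crossed the threshold in at least 1 of them.

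The following were chosen after seeing the data. Replicate 1 alone gave 1761 calls and replicate 2 alone 1467, each from 1 series per strain with its time points as replicates. In limma-voom 401 genes were called with the series as a block and 1168 without. Without the 3 libraries that stand apart, 46 genes were called at ZT6 and 11 for the interaction, with 1 library per strain at ZT6, assumed to vary like the other groups. The log2 fold change turned sign for *Pdp1* (-0.25) and *sls* (-0.0223) in replicate 1 alone and for *Muc14A* (0.46) and *Rh6* (-0.0222) in replicate 2 alone. Of clock genes that were not called over the day or in either replicate number alone, *Clk* (0.13), *cyc* (-0.08), and CG31324 (0.00187) turned in replicate 2 alone and *cry* (0.13) in replicate 1 alone. The cause of these changes was not tested. Each single time point rests on 2 libraries per strain.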

Other observations

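By median level over the 112 genes of at least 2-fold difference, *yw* was nearer to *tim_up126* for 57 and to *tim_up122* for 55, *tim_up10* for 54 and 58, and *tim_in24* for 79 and 33.

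Some genes with large differences fall outside the rule for named genes and were chosen after their values were seen. *Zasp52*, a Z-disc protein gene of muscle, had 261 to 351 CPM in *tim_up126* (median 315) and 114.6 to 174 CPM in *tim_up122* (median 140). *spab* had 17.9 to 25.3 CPM (median 21.8) against 52.4 to 84.9 CPM (median 70.1). *Ttc30*, an intraflagellar transport gene, had 1.64 to 5.14 CPM (median 2.95) against 10.35 to 20.03 CPM (median 14.3). *mthl8*, on 3L, had 3.68 to 32.1 CPM (median 12.6) against 49.9 to 73.2 CPM (median 55.4). The strains did not overlap for any of these 4 genes.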
